A study of Homo sapiens with 4 samples.

Results

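The genes described here are the TNF ligands and the TNF receptors, chosen by symbol: every gene whose symbol starts with TNFSF or TNFRSF and a number, together with TNF, LTA, LTB, LTBR, CD27, CD40, CD70, FAS, FASLG, NGFR, EDAR and RELT. The table of expression values lists 39 of them among 16658 genes. They comprise 25 receptors, 13 ligands and the readthrough gene TNFSF12-TNFSF13. RNA from WT cells and from ZCCHC4 KO1 cells was sequenced, with 2 libraries in each group and 4 in all. Every library is labelled HepG2, a line established from a human liver tumor, and was untreated. ZCCHC4 KO1 is a single line in which ZCCHC4, a methyltransferase of ribosomal RNA, was knocked out with CRISPR/Cas9, so effects of the knockout and of the line cannot be told apart. Expression is given as FPKM, which corrects the fragments of a gene for transcript length and for library size, a scale on which levels of different genes can be set side by side.

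TNF ligands are mostly membrane proteins that form trimers and bind receptors with cysteine-rich repeats. Receptors with a death domain, such as FAS and the TRAIL receptors TNFRSF10A and TNFRSF10B, can recruit FADD and caspase 8 and start apoptosis. Other receptors bind TRAF proteins and activate NF-kappaB and JNK, and decoy receptors bind ligand without passing on the death signal.

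In the libraries labelled HepG2, the hepatocyte markers were near 0. Of 10 such markers 5 are listed, and their summed FPKM was 0.12 to 0.13 in WT and 0.13 to 0.21 in ZCCHC4 KO1. AFP was at 0 and 0.05 in WT and listed at 0 in both ZCCHC4 KO1 libraries, and HNF4A and SERPINA1 did not exceed 0.08 in any library. KRT7, KRT8 and KRT18, keratins of simple epithelia, summed with 3 weak markers to between 5243.62 and 9260.13, while EPCAM did not exceed 0.03. The label was therefore not borne out by its defining markers, and the cells are called WT and ZCCHC4 KO1 cells below. ZCCHC4 itself was at 7.22 and 5.44 FPKM in WT against 1.08 and 2.29 in ZCCHC4 KO1, a log2 fold change of -1.48 (SE 0.287, adjusted p = 0.0448), and the groups did not overlap. The call ended without ZCCHC4 KO1 replicate 1, where the log2 fold change was -1.14 (adjusted p = 0.0514), with a pseudocount of 0.1 (0.0551) and without a filter on low genes (0.115), within a range of 5.44e-06 to 0.115 over the alternatives other than the crossed pairing. The crossed pairing is a block of WT replicate 1 with ZCCHC4 KO1 replicate 2 and the reverse, which was added after the data were seen and gave a lower adjusted p for each gene with such a range. PTPRC, the marker of all leukocytes, was at 0.04 to 0.12, and the T and NK cell list summed to 0.16 to 0.31. The B cell list summed to 0.04 and 0 in WT against 0.54 and 0.37 in ZCCHC4 KO1, and the myeloid list, described at the end, was higher through CD68.

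The sequences below show what lies before the start of 2 genes to which the results return, the ligand gene TNFSF9 and the feedback inhibitor gene TNFAIP3. They come from RefSeq windows of GRCh38.p14 that hold the 250 bases before a transcript start, and were chosen after the values were seen. For TNFSF9 this start, 6531026, is that of the gene. For TNFAIP3 it is 137867259, while RefSeq places the earliest start of the gene at 137866349, so that the window lies within the annotated gene, and its last 45 bases, which GENCODE v44 gives as exon, are not printed. TNFSF9 is on the plus strand at chr19:6530776-6531025 with a GC content of 64.4%, and TNFAIP3 on the plus strand at chr6:137867009-137867213 with 77.6%. Capitals mark matches to a TATA box (TATAAA), a GC box (GGGCGG) or the kappaB consensus, the binding pattern of NF-kappaB.
TNFSF9: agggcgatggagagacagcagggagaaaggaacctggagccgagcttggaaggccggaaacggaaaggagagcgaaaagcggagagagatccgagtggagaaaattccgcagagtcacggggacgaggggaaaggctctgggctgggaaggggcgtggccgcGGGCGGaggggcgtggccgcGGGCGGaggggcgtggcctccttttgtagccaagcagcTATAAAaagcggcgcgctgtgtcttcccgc
TNFAIP3: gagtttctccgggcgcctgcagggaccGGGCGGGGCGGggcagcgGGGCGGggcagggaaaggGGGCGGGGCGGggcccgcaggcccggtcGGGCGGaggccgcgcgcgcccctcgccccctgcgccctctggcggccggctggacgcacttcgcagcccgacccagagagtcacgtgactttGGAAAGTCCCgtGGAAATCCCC
In TNFSF9 the TATA box began 30 bases before the start and the GC boxes 88 and 68 bases before it. The TNFAIP3 window held 6 matches to the GC box, some of them overlapping, and 2 to the kappaB consensus, 67 and 55 bases before the start at 137867259. Windows were available for 8 of the tested superfamily genes, some with more than 1 start, and those of the TRAIL receptor genes were not used. TNFSF12, TNFRSF12A and CD70 have no entry. Of the 8 genes, 7 had a GC box, 2 the kappaB consensus (FAS and TNFSF13), 1 a TATA box (TNFSF9), 1 a CCAAT box (CCAAT, TNFRSF1A) and 1 an AP-1 site (TGANTCA, FAS), counted on both strands. A gene was counted where any of its windows matched, and FAS, RELT and TNFSF13 had more than 1 window. The shares of all windows given next count each window alone, so they are not directly comparable with these gene counts. Of 35116 RefSeq windows of the same length, 42.6% held a GC box, 9.96% the kappaB consensus, 10.7% a TATA box, 32.0% a CCAAT box and 6.57% an AP-1 site. A shorter kappaB pattern (GGGNNTTCC) was searched first and matched in FAS, TNFSF13 and TNFAIP3 and in 5.78% of all windows, and a cyclic AMP response element (TGACGTCA) matched in 0 of the 8 genes and in 1.65% of all windows. These matches are descriptions of the letters in the windows.

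Most superfamily genes were expressed weakly. Of the 39 genes, 23 stayed under 1 FPKM in every library and 12 were listed at 0 in at least 1 library. The 14 genes that reached 1 FPKM in at least 2 libraries were tested, 10 receptors and 4 ligands. The other 25 were below that filter, and 19 of these stayed under 0.3 FPKM everywhere. In 7 genes every library exceeded 10 FPKM: the receptors TNFRSF12A, LTBR, TNFRSF1A, TNFRSF10B and TNFRSF10A and the ligands CD70 and TNFSF9. TNFRSF10D exceeded that level in WT, but was at 9.05 in one ZCCHC4 KO1 library.

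**Figure D1:**
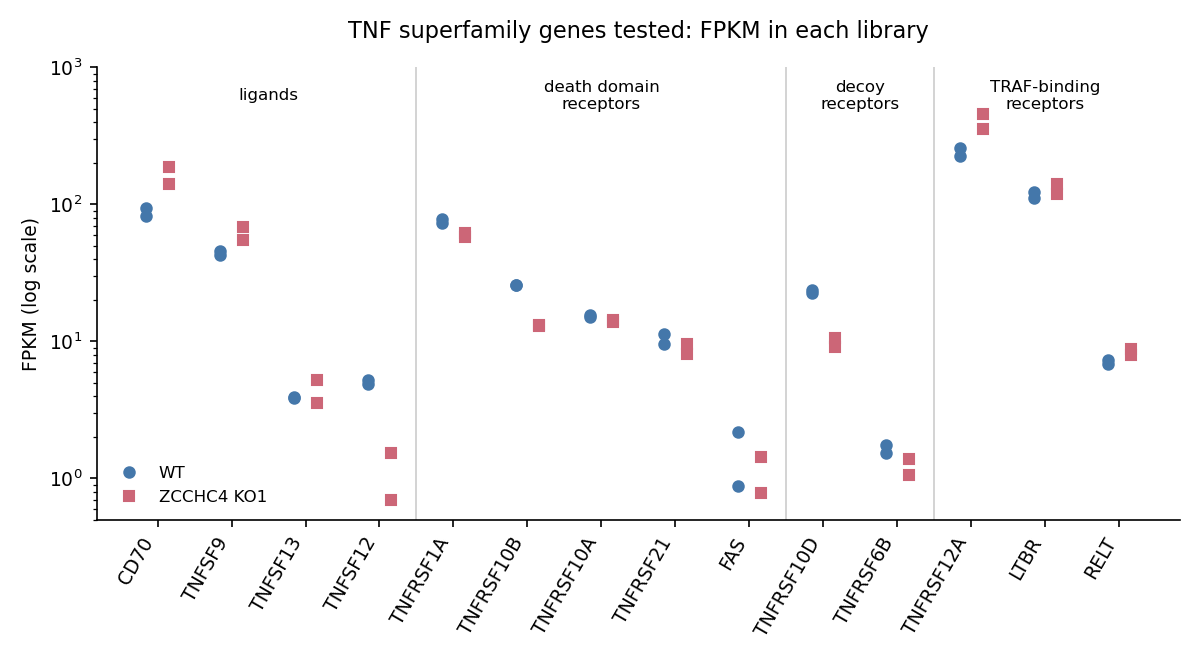
FPKM (log axis) of the 14 tested TNF superfamily genes in each library, grouped by role, with circles for the 2 WT libraries and squares for the 2 ZCCHC4 KO1 libraries. TNFSF12, TNFRSF10B and TNFRSF10D lie lower in both ZCCHC4 KO1 libraries, and CD70 and TNFRSF12A higher.

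WT and ZCCHC4 KO1 cells were compared to ask which genes differ once ZCCHC4 is knocked out. TNFSF12 and TNFRSF10D were lower in ZCCHC4 KO1 and were called at an FDR below 0.05 with a change of at least 2-fold, which makes 2 of the 14 tested genes (14.3%), where 3.25% of all 10726 tested genes were called lower by the same rule. In the other direction 0 of 14 were called, against 0.932% of all tested genes. At the thresholds of the study, an FDR below 0.001 and 2-fold, limma called 0 of the 14 in either direction, against 0.0559% of all tested genes lower and 0.0186% higher. The study names no test for its calls and reports far more genes at these thresholds, so these counts are those of limma. At an unadjusted p below 0.05, 4 of the 14 were lower (13.9% of all tested genes) and 3 were higher (8.96%). In all, 8 of the 14 had a negative and 6 a positive log2 fold change. Their median was -0.17, and that of all tested genes was -0.03.

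**Figure D2:**
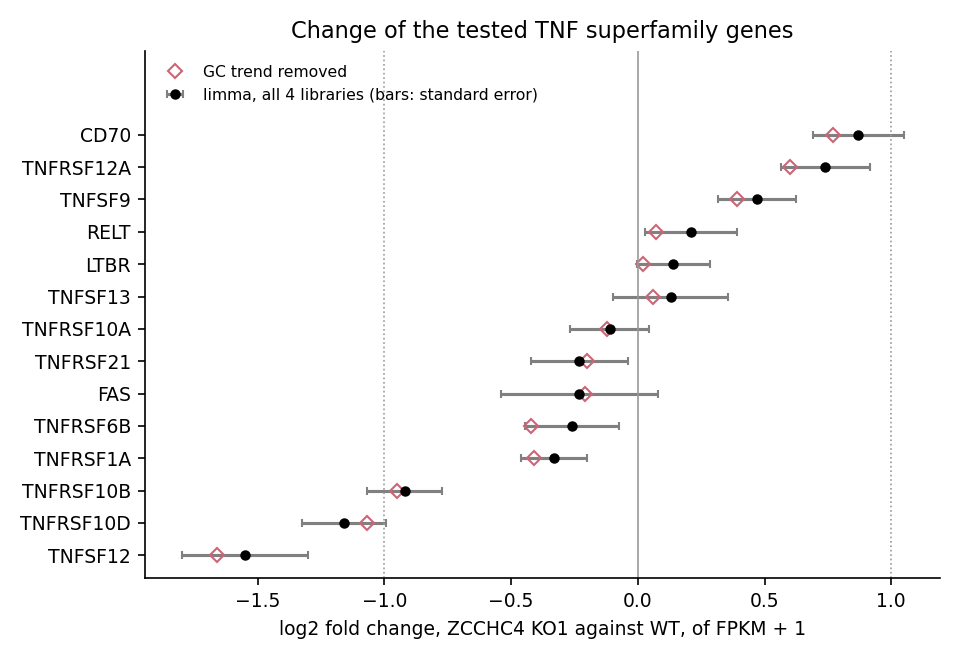
Log2 fold change of FPKM + 1, ZCCHC4 KO1 against WT, for the 14 tested genes, as black points with the standard error (2 libraries per group), and as diamonds after removal of the trend on GC content. Dotted lines mark 2-fold. TNFSF12 at -1.55 and TNFRSF10D at -1.16 lie beyond 2-fold, and CD70 has the highest value at 0.87.

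Among the ligands, TNFSF12, known as TWEAK, a cytokine that acts through the receptor TNFRSF12A, showed the largest change of the tested superfamily genes. WT gave 4.86 and 5.23 FPKM, and ZCCHC4 KO1 gave 1.53 and 0.69. Both ZCCHC4 KO1 libraries were far below both WT libraries. The means were 5.04 ± 0.262 and 1.11 ± 0.594 (SD, n = 2 each), the log2 fold change was -1.55 (SE 0.25) and the adjusted p was 0.0277 (limma, Benjamini-Hochberg). The call was lost when genes were not filtered (adjusted p = 0.0857; 1.73e-06 to 0.0857 over the alternatives other than the crossed pairing).

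In GRCh38, TNFSF12 lies on chromosome 17 from 7549058 to 7557881, beside TNFSF13, which encodes APRIL, a B cell survival factor. The readthrough gene TNFSF12-TNFSF13 joins both. TNFSF12-TNFSF13 was listed at 0 in both WT libraries, but reached 0.54 and 0.49 FPKM in ZCCHC4 KO1, below the filter of the test. TNFSF13 was at 3.9 and 3.83 in WT against 5.22 and 3.58 in ZCCHC4 KO1, with overlapping groups and a log2 fold change of 0.13 (SE 0.226, adjusted p = 0.785). Transcripts of these genes share sequence: of all 50-base stretches, 10.2% of those in TNFSF12, 48.5% of those in TNFSF13 and 97.4% of those in TNFSF12-TNFSF13 occur in another gene of the locus. How the estimation divided reads among them is therefore uncertain. TNFSF12 and the readthrough gene summed to 4.86 and 5.23 FPKM in WT, against 2.07 and 1.18 in ZCCHC4 KO1. With TNFSF13 added, the sums were 8.76 and 9.06 in WT against 7.29 and 4.76 in ZCCHC4 KO1. Either sum was lower in both ZCCHC4 KO1 libraries. These sums were chosen after the values were seen and were not tested. The 20 nearest tested genes on chromosome 17 were 11 higher and 9 lower, their median log2 fold change being 0.04.

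**Figure D3:**
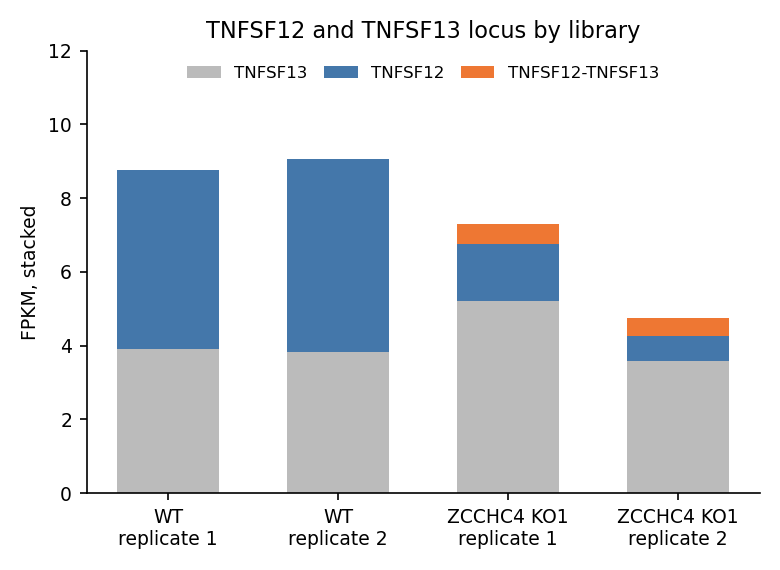
FPKM of TNFSF13, TNFSF12 and the readthrough gene TNFSF12-TNFSF13, stacked for each library from 0. The TNFSF12 segment shrinks from 4.86 and 5.23 in WT to 1.53 and 0.69 in ZCCHC4 KO1, and the readthrough gene, listed at 0 in WT, adds 0.54 and 0.49 in ZCCHC4 KO1.

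CD70, the ligand of the lymphocyte receptor CD27, was the ligand with the highest level. It stood at 82.04 and 93.97 FPKM in WT against 186.45 and 140.29 in ZCCHC4 KO1. Both ZCCHC4 KO1 libraries exceeded both WT libraries, and replicate 1 was the higher of them. The log2 fold change was 0.87 (SE 0.179) with an adjusted p of 0.0502, so that CD70 was not called. Without ZCCHC4 KO1 replicate 2 it was called, with 1.08 (adjusted p = 0.00265; 0.000762 to 0.185 over the alternatives other than the crossed pairing). CD27 did not exceed 0.16 FPKM in any library.

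TNFSF9, a ligand that costimulates T cells through TNFRSF9, lies beside CD70 (6581648 to 6591150) on chromosome 19. Its FPKM was 42.99 and 45.44 in WT against 68.4 and 55.27 in ZCCHC4 KO1. The groups did not overlap, yet the log2 fold change of 0.47 (SE 0.154) missed the threshold (adjusted p = 0.147). The 20 nearest tested genes of TNFSF9 and CD70 were 18 higher and 2 lower, their median log2 fold change being 0.25, and their part in the values of this pair was not tested.

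The remaining ligands were near the lower end of the table. TNFSF15, a ligand of TNFRSF25, was at 1.35 and 0.79 in WT against 0.13 and 0.3 in ZCCHC4 KO1, the highest single value of the untested genes. The groups of TNFSF15 did not overlap, and it was too low for the test. TNF was at 0 and 0.03 in WT against 0.15 and 0.09 in ZCCHC4 KO1, and LTB, a subunit of membrane lymphotoxin, was listed at 0 in WT and at 0.06 in each ZCCHC4 KO1 library. TNFSF14 was at 0.07 and 0.08 in WT against 0.11 and 0.15 in ZCCHC4 KO1, and LTA did not exceed 0.05. The death receptor ligands were close to 0, as TNFSF10, which encodes TRAIL, reached at most 0.06 and FASLG 0.03. TNFSF4 and TNFSF13B also stayed below 0.3 FPKM in every library.

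The receptors of TRAIL are encoded by 4 genes that stand side by side on chromosome 8, in the order TNFRSF10B, TNFRSF10C, TNFRSF10D and TNFRSF10A. TNFRSF10D, a decoy receptor with a truncated death domain, was at 22.66 and 23.63 FPKM in WT against 9.05 and 10.6 in ZCCHC4 KO1. Both ZCCHC4 KO1 libraries were under both WT libraries by more than the spread within either group. The log2 fold change was -1.16 (SE 0.166, adjusted p = 0.0203). The call ended when either WT library was left out, with -1.19 without WT replicate 1 (adjusted p = 0.0633) and -1.13 without WT replicate 2 (adjusted p = 0.1, the highest over the alternatives other than the crossed pairing, of which the lowest was 0.000826).

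TNFRSF10B, a death receptor of TRAIL, was at 25.61 and 25.98 in WT against 13.01 and 13.23 in ZCCHC4 KO1. The libraries of a group differed little and the groups were far apart. The log2 fold change of -0.92 (SE 0.147, adjusted p = 0.0264) passed the FDR of 0.05 but not the 2-fold limit. By that FDR alone, 3 of the 14 genes were lower (4.48% of all tested genes) and 0 higher (1.5%). For TNFRSF10B the adjusted p exceeded 0.05 with the replicate number as a block (0.0891) and without WT replicate 1 (0.197) or WT replicate 2 (0.213), within a range of 0.00305 to 0.213 over the alternatives other than the crossed pairing.

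TNFRSF10A, the other death receptor of TRAIL, was at 15.46 and 15 in WT against 14.22 and 13.91 in ZCCHC4 KO1, a log2 fold change of -0.11 (SE 0.156, adjusted p = 0.746). The decoy TNFRSF10C, which lacks an intracellular part, was at 0.91 and 1 in WT against 0.78 and 0.87 in ZCCHC4 KO1, below the filter. Within a library, the FPKM of TNFRSF10A over that of TNFRSF10B was 0.604 and 0.577 in WT against 1.09 and 1.05 in ZCCHC4 KO1. The ratio of the death receptors to the decoys, TNFRSF10A plus TNFRSF10B over TNFRSF10C plus TNFRSF10D, was 1.74 and 1.66 in WT against 2.77 and 2.37 in ZCCHC4 KO1. Both ratios were higher in each ZCCHC4 KO1 library than in each WT library. They were chosen after the values were seen and carry no test. The 4 transcripts have 0% of their 50-base stretches in common with another gene of the cluster.

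Of the 20 tested genes nearest to the cluster, 19 had a negative log2 fold change and 1 a positive one, with a median of -0.32 and a range from -1.32 to 0.12. TNFRSF10D at -1.16 and TNFRSF10B at -0.92 were lower than that median and TNFRSF10A was above it. The 2 neighbours at least 2-fold lower were SLC39A14, a metal ion transporter gene, and LOXL2, a lysyl oxidase gene, with -1.11 and -1.32. The part of the region in the values of the receptors was not tested.

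**Figure D4:**
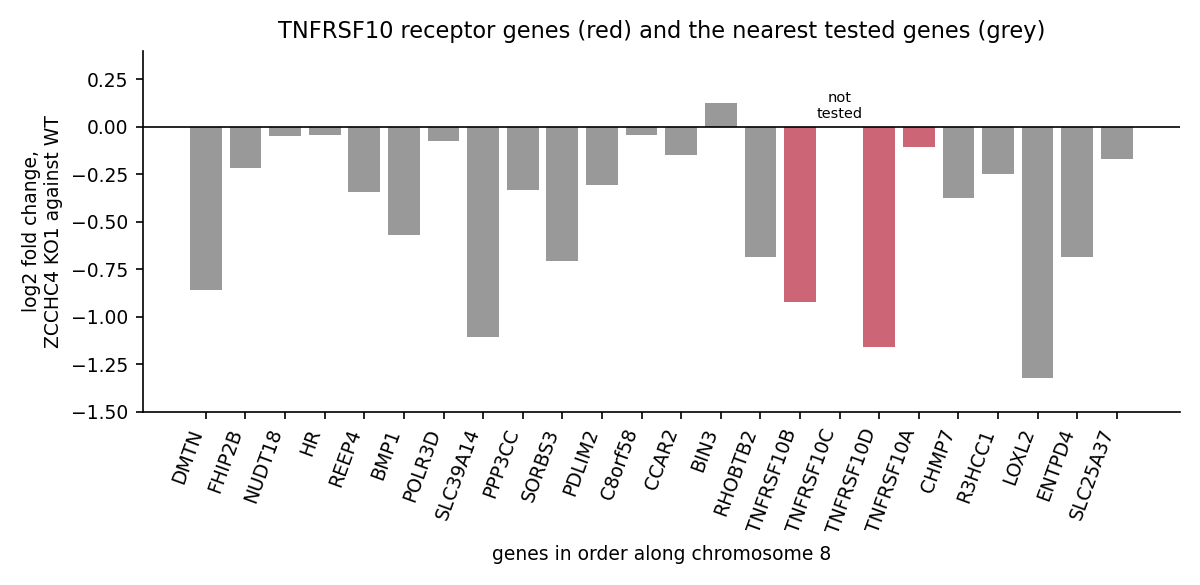
Log2 fold change, ZCCHC4 KO1 against WT, of the TNFRSF10 genes (red) and the 20 nearest tested genes (grey), in their order along chromosome 8. Bars point down for 19 of the 20 neighbours, and TNFRSF10A, with -0.11, stands out from TNFRSF10B and TNFRSF10D.

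Of the other death domain receptors, TNFRSF1A, the main receptor of TNF on most cells, had the highest level, at 72.68 and 78.73 FPKM in WT against 62 and 57.78 in ZCCHC4 KO1. Its groups did not overlap, but the log2 fold change of -0.33 (SE 0.129, adjusted p = 0.203) was not called. TNFRSF21, a death domain receptor studied in neurons, was at 11.27 and 9.62 in WT against 8.04 and 9.52 in ZCCHC4 KO1 (adjusted p = 0.556). FAS was at 2.17 and 0.88 in WT against 0.78 and 1.43 in ZCCHC4 KO1, with overlapping groups. NGFR, the low-affinity neurotrophin receptor, was at 0.44 and 0.38 in WT against 0.07 and 0.15 in ZCCHC4 KO1. EDAR, the ectodysplasin receptor, had 0.01 in each WT library and 0.03 in each ZCCHC4 KO1 library, and TNFRSF25 did not exceed 0.27. The decoy TNFRSF6B, which binds FASLG and TNFSF14, was at 1.75 and 1.54 in WT against 1.39 and 1.05 in ZCCHC4 KO1, with a log2 fold change of -0.26 (adjusted p = 0.485). TNFRSF11B, the decoy osteoprotegerin, did not exceed 0.02.

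Among the receptors that bind TRAF proteins, TNFRSF12A had the highest FPKM of all superfamily genes. It was at 224.22 and 259.62 in WT against 456.43 and 354.68 in ZCCHC4 KO1. Both ZCCHC4 KO1 libraries lay above both WT libraries, and replicate 1 was again the higher. Its log2 fold change of 0.74 (SE 0.176) had an adjusted p of 0.0738. TNFRSF12A, on chromosome 16 from 3020368 to 3022383, encodes the receptor of TNFSF12. In ZCCHC4 KO1 the ligand was thus lower, and the receptor higher without passing the test. The 20 tested genes nearest to TNFRSF12A on chromosome 16 had a median of 0.19, with 15 higher and 5 lower.

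CD70 and TNFRSF12A were the tested genes whose groups did not overlap and whose mean was at least 1.5-fold higher in ZCCHC4 KO1, 2 of 14 (14.3%) against 6.46% of all tested genes. By the same measure 3 of 14 were lower, TNFSF12, TNFRSF10B and TNFRSF10D (21.4%), against 13.2% of all tested genes. LTBR, the lymphotoxin beta receptor, was at 112.16 and 122.64 in WT against 140.22 and 118.96 in ZCCHC4 KO1, with overlapping groups (log2 fold change 0.14, adjusted p = 0.635). RELT was at 6.88 and 7.35 in WT against 8.81 and 7.93 in ZCCHC4 KO1 (adjusted p = 0.576). TNFRSF11A, the receptor RANK of bone resorption, was at 0.58 and 0.49 in WT against 0.66 and 0.7 in ZCCHC4 KO1, under the filter. TNFRSF9, TNFRSF13C, TNFRSF1B, TNFRSF14, CD27, TNFRSF18, CD40, TNFRSF8 and TNFRSF4, most of them receptors of lymphocytes and other leukocytes, did not exceed 0.44 FPKM. The 20 tested genes nearest to TNFRSF1A and LTBR on chromosome 12 had a median of -0.25, with 16 lower and 4 higher.

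Replicates of a group differed by transcript GC content. Over 10559 tested genes, replicate 2 minus replicate 1 had a Spearman correlation with GC content of 0.715 for WT and of -0.778 for ZCCHC4 KO1, a description across genes, which are not independent. With this trend removed from each library, TNFSF12 was at -1.66 (adjusted p = 0.001), TNFRSF10D at -1.07 (0.00157) and TNFRSF10B at -0.95 (0.00305). CD70 was then at 0.77 (adjusted p = 0.000762), TNFRSF12A at 0.6 (0.00166), TNFSF9 at 0.39 (0.0206) and TNFRSF1A at -0.41 (0.0225), all past an FDR of 0.05 but short of 2-fold. The share of all tested genes past that FDR after this removal was not counted. Over the alternatives other than the crossed pairing, the adjusted p ran from 0.00166 to 0.483 for TNFRSF12A, from 0.0206 to 0.737 for TNFSF9 and from 0.0225 to 0.824 for TNFRSF1A.

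Downstream of the receptors, 63 genes of the signalling pathway were followed, of which 62 are listed and 55 were tested. Of these, 24 had a positive and 31 a negative log2 fold change, with 1 called lower and 0 called higher at an FDR below 0.05 and 2-fold, where 3.25% of all tested genes were called lower and 0.932% higher. The gene called was TNFAIP3, which encodes a ubiquitin-editing enzyme that limits NF-kappaB signalling and is itself induced by NF-kappaB. It was at 3.61 and 2.65 FPKM in WT against 0.82 and 1.11 in ZCCHC4 KO1. The groups did not overlap, with a log2 fold change of -1.07 (SE 0.211, adjusted p = 0.046). It lost the call with the replicate number as a block (adjusted p = 0.0825) and without a filter (0.1). The call was also lost without WT replicate 1 (-0.9) or ZCCHC4 KO1 replicate 1 (-0.96). After GC removal (-0.99, adjusted p = 0.01) or quantile normalization (-0.96, adjusted p = 0.0129) TNFAIP3 passed the FDR of 0.05 but fell short of 2-fold. Its adjusted p ran from 0.000613 to 0.218 over the alternatives other than the crossed pairing.

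The other deubiquitinases and feedback inhibitors held 6 genes with a positive value. NFKBIA, the inhibitor that holds NF-kappaB in the cytoplasm, was at 58.86 and 63.78 in WT against 91.76 and 77.1 in ZCCHC4 KO1 (log2 fold change 0.45, adjusted p = 0.14). TNIP2, a partner of TNFAIP3, was at 22.27 and 25.66 in WT against 46.8 and 37.91 in ZCCHC4 KO1 (0.79, adjusted p = 0.0557). TAX1BP1, an adaptor of TNFAIP3 chosen here after its values were seen, was at 18.8 and 8.44 in WT against 26.38 and 44.4 in ZCCHC4 KO1 (1.37, SE 0.406, adjusted p = 0.118). Without WT replicate 1 its value was 1.9, and without WT replicate 2 it was 0.83. All 3 had higher values in both ZCCHC4 KO1 libraries, and none was called with the main settings. With the GC trend removed, NFKBIA was at 0.45 (adjusted p = 0.00921), TNIP2 at 0.67 (0.00326) and TAX1BP1 at 1.43 (0.00518). Of these, only TAX1BP1 was past 2-fold.

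Among adaptors and TRAFs, TRAF4 was at 59.86 and 67.88 in WT against 151.59 and 106.64 in ZCCHC4 KO1. Its log2 fold change of 0.99 (SE 0.198, adjusted p = 0.0481) was just short of 2-fold, and it was called without WT replicate 2 (1.07) or ZCCHC4 KO1 replicate 2 (1.24). DAXX, first described as a partner of FAS, was at 45.57 and 44.88 in WT against 37.46 and 32.98 in ZCCHC4 KO1 (-0.35, adjusted p = 0.204). With the GC trend removed DAXX was at -0.39 (adjusted p = 0.0365). Of 11 tested genes in this list 3 were higher and 8 lower, with 0 called.

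Of the 7 tested caspase and necroptosis effectors 3 were higher and 4 lower. BID, which links death receptors to mitochondria, was at 32.13 and 36.59 in WT against 50.57 and 43.81 in ZCCHC4 KO1 (0.45, adjusted p = 0.154). With the GC trend removed BID was at 0.41 (adjusted p = 0.0165). CFLAR, the inhibitor of caspase 8, had a log2 fold change of -0.05 (adjusted p = 0.897), positive after median-ratio scaling, quantile normalization or GC removal. The NF-kappaB subunits had 4 tested genes with a median of 0.37. RELA was at 46.92 and 53.96 in WT against 73.22 and 63.33 in ZCCHC4 KO1 (0.43, adjusted p = 0.161), and NFKB2 at 26.57 and 29.84 in WT against 36.67 and 33.63 in ZCCHC4 KO1 (0.31, adjusted p = 0.28).

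The 13 kinases comprised 5 with a positive and 8 with a negative value, a median of -0.05, and MAP2K7 (log2 fold change 0.31) and IKBKG (0.27) had the highest levels. SHARPIN (0.24) and RBCK1 (-0.12), both of the linear ubiquitin complex, were the most abundant of the 6 genes in their list. The list of sheddases, proteases that release ligands and receptors from the membrane, also holds the intramembrane proteases SPPL2A and SPPL2B. Its median was -0.16, with SPPL2A at -0.45 and ADAM17 at -0.26. SPPL2A was at -0.083 without ZCCHC4 KO1 replicate 1 and at -0.818 without replicate 2. RELL2, a relative of RELT, was at -0.04. None of these passed the test.

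**Figure D5:**
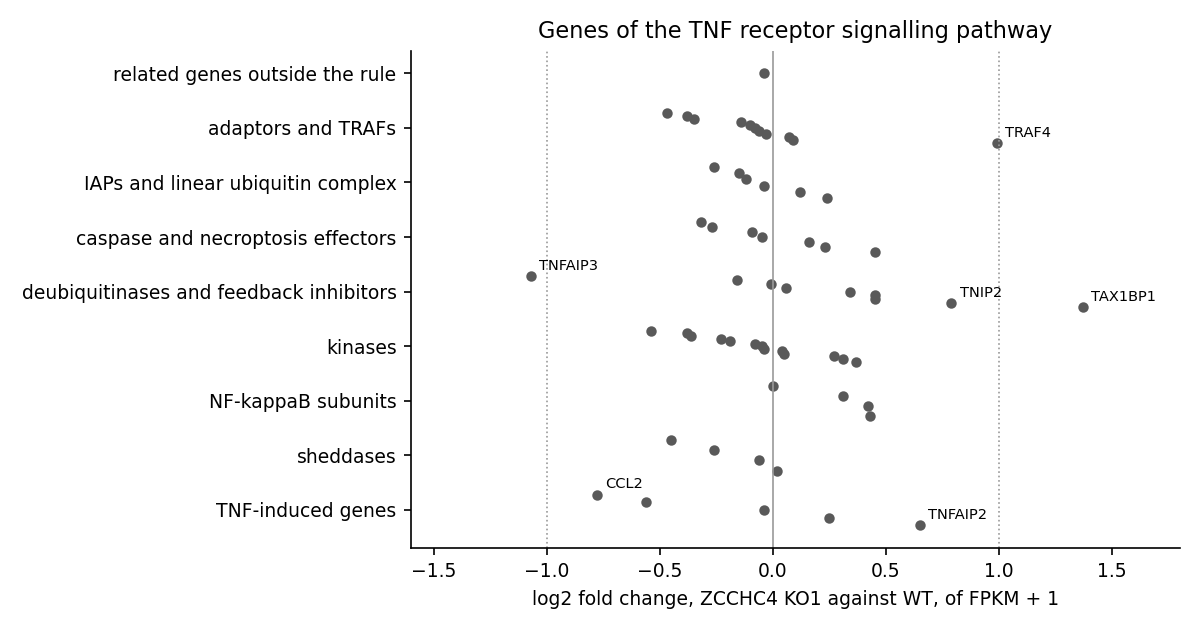
Log2 fold change of FPKM + 1, ZCCHC4 KO1 against WT, for each tested gene of the signalling lists and of the genes that TNF induces, 1 row per list, with dotted lines at 2-fold and names where the value exceeds 0.6 in size. TNFAIP3 at -1.07 is the gene called, and TAX1BP1 at 1.37 and TRAF4 at 0.99 were not called.

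Of 15 genes that TNF induces through NF-kappaB, 13 are listed and 5 were tested. Limma called 0 of them, and at an unadjusted p below 0.05, 1 was higher and 2 were lower, where the shares of all tested genes were 8.96% and 13.9%. The higher one was TNFAIP2, at 15.46 and 16.42 in WT against 27.04 and 24.32 in ZCCHC4 KO1 (log2 fold change 0.65, adjusted p = 0.0697). The lower ones were CCL2, a chemokine of monocytes, at 9.42 and 8.71 in WT against 4.23 and 5.52 in ZCCHC4 KO1 (-0.78, adjusted p = 0.0892), and IER3. These were not called. With the GC trend removed, TNFAIP2 was at 0.53 (adjusted p = 0.0248), CCL2 at -0.67 (0.0245) and IER3 at -0.65 (0.0139), past an FDR of 0.05 but short of 2-fold. IER3, an immediate early gene, was at 94.16 and 103.26 in WT against 64 and 69.4 in ZCCHC4 KO1 (log2 fold change -0.56, adjusted p = 0.0708). SOD2, the mitochondrial superoxide dismutase, was at 27.12 and 24.75 in WT against 23.36 and 27.2 in ZCCHC4 KO1 (-0.04, adjusted p = 0.921; positive after median-ratio scaling, quantile normalization or GC removal). Below the filter, 5 genes did not overlap between the groups and differed at least 1.5-fold in mean, named here after their values were seen. CXCL3, CCL20 and TNFAIP6, the other listed genes below it, overlapped. The share of all genes below the filter that differed in this way was not counted. PTGS2, the inducible cyclooxygenase, was at 1.57 and 0.85 in WT against 0.03 and 0.07 in ZCCHC4 KO1. The cytokine gene IL6 was at 0.33 and 0.57 in WT against 0.09 and 0.1 in ZCCHC4 KO1, and the chemokine gene CXCL2 at 0.78 and 0.41 in WT against 0.21 and 0.28 in ZCCHC4 KO1. CXCL8 was at 0.03 and 0.09 in WT and listed at 0 in ZCCHC4 KO1. These 4 were lower in ZCCHC4 KO1. The fifth, ICAM1, a ligand of leukocyte integrins, was higher, at 0.15 and 0.13 in WT against 0.76 and 0.96 in ZCCHC4 KO1. Its mean FPKM was 6.14-fold higher in ZCCHC4 KO1. Without a filter on low genes its log2 fold change of FPKM + 1 was 0.7 (adjusted p = 0.0423). That scale understates the change at such low values.

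Among markers of other cells, 3 myeloid and 3 fibroblast markers were tested. In each of these lists 1 was called lower and 0 higher at an FDR below 0.05 and 2-fold. Of all tested genes, 3.25% were called lower and 0.932% higher. The leukocyte, lymphocyte and endothelial markers were below the filter. In the myeloid list, CSF1R was at 1.09 and 1.37 in WT against 0.05 and 0.07 in ZCCHC4 KO1 (-1.07, adjusted p = 0.0248). It reached the filter through the WT libraries alone, and without a filter its adjusted p was 0.0284. The 5 listed markers summed to 17.12 to 19.22 in WT and 12.77 to 13.34 in ZCCHC4 KO1, mostly CD68. CD14 went the other way, at 0.24 and 0.19 in WT against 0.32 and 0.34 in ZCCHC4 KO1. LYZ and ITGAM overlapped between the groups. In the fibroblast list, COL1A1 was at 7.28 and 7.19 in WT against 2.59 and 2.28 in ZCCHC4 KO1 (-1.26, adjusted p = 0.0235). Without a filter on low genes COL1A1 was not called (adjusted p = 0.066). LUM was at 1.86 and 1.39 in WT against 1.81 and 3.79 in ZCCHC4 KO1 (0.49, adjusted p = 0.4), PDGFRB at 1.94 and 2 in WT against 1.25 and 1.23 in ZCCHC4 KO1 (-0.41, adjusted p = 0.235), and DCN at 0.91 and 0.82 in WT and listed at 0 in ZCCHC4 KO1. The 5 markers summed to 11.4 to 11.99 in WT and 5.66 to 7.31 in ZCCHC4 KO1. The endothelial markers summed to 0.64 to 0.74 in WT and 0.32 to 0.35 in ZCCHC4 KO1. Of these, CDH5 was at 0.55 and 0.48 in WT against 0.17 and 0.2 in ZCCHC4 KO1, while PECAM1, VWF and KDR overlapped. The leukocyte marker PTPRC, at or under 0.12, and the fibroblast marker COL1A2, at or under 0.01, were near 0 in all 4 libraries. Whether other cells have a part in the values of the superfamily genes was not tested, and fewer cells of a type and less RNA per cell cannot be told apart.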

How the data were processed

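RNA was sequenced from 2 WT and 2 ZCCHC4 KO1 libraries, grouped by their labels. Per the study's methods, Bowtie2 alignment to GRCh38 was followed by RSEM, and the authors deposited its FPKM values in 1 column for each library. Versions, annotation and read filters are not given in the sources used here. The methods name BGISEQ-500 and the labels Illumina HiSeq. Libraries treated with oxaliplatin were not analysed here.

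FPKM values are not counts, so log2(FPKM + 1) was compared with limma 3.58.1 in R 4.3.3 (lmFit, eBayes with trend, two-sided), for the 10726 of 16658 genes with FPKM of at least 1 in at least 2 libraries, with Benjamini-Hochberg adjustment over all of them. This scale understates changes of low genes. FPKM sums were 512417.0 to 565198.6, the depth is unknown, and precision rests on 2 libraries per group. The labels do not say that these came from separate cultures, so p-values measure the spread between these libraries. Symbols came from RefSeq for 16384 genes. Of 48 matching symbols, 9 were not listed. GC content came from GENCODE v44 transcripts (98.4% of tested genes). Shared stretches were counted in the same transcripts. 0 columns were left without a sample.

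Genes and lists were chosen with earlier results of these data known. Values are given for called genes, the 4 most abundant of each role, superfamily genes without overlap and a 1.5-fold difference, and the 2 most abundant of each list. FAS, superfamily genes given only by their maximum, marker genes, neighbouring genes and those marked as such were named outside this rule. The neighbouring genes, the shared stretches and the set of motifs were chosen after values or matches were seen. The script was tested on simulated data with noise drawn from moderated variances, and an earlier version with the raw variances recovered fewer of the changed genes.

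Alternatives were a pseudocount of 0.1, no filter, a minimum FPKM of 5, median-ratio scaling, quantile normalization, removal of the GC trend (spline with 4 degrees of freedom), eBayes without trend, the replicate number as a block and leaving out each library. A crossed pairing was added after the data were seen.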

Additional observations from a re-analysis of the deposited data

How the results depend on the processing

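With 2 libraries per group and an unknown depth, small differences of low genes could not be resolved, and where a library was left out the lone library was assumed to vary like the other group. Of 300 values of named genes under other settings, 280 kept their direction and their side of the threshold, 7 lost a call, 6 gained one and 7 turned. Leaving out a library kept 117 of 136. The other filters, eBayes without trend, the replicate block and the crossed pairing left the log2 values as they were. Their log2 fold changes therefore equal the main ones, and a direction could not turn there. Most named genes were not called with the main settings, and for them keeping the side means staying uncalled. The count of 280 is thus no measure of robustness. The adjusted p-values are from limma with Benjamini-Hochberg adjustment.

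At the thresholds of the study, the superfamily genes called lower numbered 2 with median-ratio scaling and 2 with the crossed pairing, in place of 0 (TNFRSF10D and TNFSF12). The share of all tested genes called was not counted under any of the other settings. At an FDR of 0.05 and 2-fold they numbered 1 without a filter and 1 with a minimum FPKM of 5, which leaves TNFSF12 untested, in place of 2, and 1 to 2 with a library left out. Genes called higher numbered 0 to 1 with a library left out (CD70 without ZCCHC4 KO1 replicate 2). The median log2 fold change of -0.17 was 0.015 with a minimum FPKM of 5, -0.076 after quantile normalization and -0.103 after median-ratio scaling, and ran from -0.202 to -0.006 with a library left out, the latter without WT replicate 1.

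Signalling genes called higher numbered 2 with median-ratio scaling (TAX1BP1 and TRAF4), 1 with quantile normalization, 1 with GC removal, 1 with the replicate block and 1 with the crossed pairing (TAX1BP1 in each), in place of 0, and 1 whichever library was left out (TAX1BP1 or TRAF4). Those called lower numbered 0 without a filter, with a minimum FPKM of 5, with quantile normalization, with GC removal and with the replicate block, in place of 1, and 0 to 1 with a library left out, TNFAIP3 being lost without WT replicate 1 or ZCCHC4 KO1 replicate 1. With a minimum FPKM of 5 TNFAIP3 is not among the genes tested. For the other settings the cause was not tested, and the share of all tested genes called under each was not counted.

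Small values turned for CFLAR (0.012 with median-ratio scaling, 0.046 with quantile normalization, 0.048 with GC removal), SOD2 (0.029, 0.014 and 0.04) and RELL2 (0.047 with quantile normalization). With a library left out, the values ran from -0.584 to 0.072 for ADAM17, -0.136 to 0.032 for CFLAR, -0.608 to 0.146 for FAS, -0.265 to 0.019 for RBCK1, -0.168 to 0.088 for RELL2, -0.144 to 0.068 for SOD2 and -0.087 to 0.355 for TNFSF13.

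The replicate numbers did not pair the libraries: the differences of replicate 2 from replicate 1 correlated at -0.787 (Pearson) between the groups, across 10726 genes. With the replicate number as a block, 2 superfamily genes were called lower and 0 higher at an FDR of 0.05 and 2-fold, TNFRSF10D and TNFSF12, and the call of TNFAIP3 was lost (adjusted p = 0.0825; 0.000613 to 0.218 over the alternatives other than the crossed pairing).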
